A study of Mus musculus with 48 samples.

Results

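Heat-shock chaperones are proteins that bind unfolded or partly folded proteins, keep them from clumping and help them reach their native shape. Hsp70 proteins do this in cycles of ATP binding and hydrolysis, in which J-domain proteins deliver the client and start hydrolysis and Hsp110 proteins help release the spent nucleotide. Hsp90 acts later on many kinases and receptors, and Hsp60 with its lid Hsp10 forms a folding chamber in the mitochondrial matrix. When unfolded proteins build up, heat-shock factor 1 binds repeated GAA blocks in front of many of these genes and raises their transcription. Glioma cells, like many tumor cells, are known to express several of these chaperones at high levels, and taking a tissue apart with enzymes is known to raise the inducible ones.

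The 10 genes described here are Hsph1, Dnaja1, Dnajb1, Chordc1, Hspa1a, Hspa1b, Hspa8, Hsp90aa1, Hspd1 and Hspe1. They were taken by symbol, and all 10 were found among the 20300 genes of the whole-tumor mix and among the 14363 genes of the CD11b+ cells. The list was drawn up with differences between shSELP and shNC libraries already known. The values of that contrast are therefore a description of the members, and nothing is supported with them. The comparison of cell classes within libraries was not used to choose the genes and was tested.

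GL261 is a mouse glioma line, and the cells implanted into 6-week-old male C57BL/6 mice expressed a short hairpin RNA: a negative control in the shNC group, and in the shSELP group one directed at Selp, the gene of P-selectin. The hairpin was in the implanted cells, so the immune, vascular and brain cells of the host kept their own Selp. In the mix, collected on day 16 per the labels, CD11b+ cells, other CD45+ cells and what was left after sorting, cancer cells included, were combined in equal parts, with 2 shNC and 2 shSELP libraries. The other experiment held CD11b+ cells of day 21, taken with magnetic beads, with 1 shNC and 1 shSELP library, named shNC 1 and shSELP 2 in the labels. The study's methods state a pool of 3 brains per group and give another day and reagent kit version than the labels do. It is not stated if a group was pooled once or once per library, so what separates its libraries may be their preparation alone. The comparison asks how the tumor and its immune cells differ when the tumor cells carry the hairpin against Selp.

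Expression was measured in single cells as unique molecular identifiers (UMIs) with a droplet method that reads the 3′ ends of transcripts. The shNC 1, shNC 2, shSELP 1 and shSELP 2 libraries of the mix held 2289, 2297, 2293 and 2293 cells with 22945972, 22626413, 17398121 and 25589350 UMIs. The CD11b+ libraries held 2862 cells each, with 12628177 UMIs for shNC and 11445676 for shSELP. Libraries of an experiment shared at most 3 cell barcodes. Cells that reached 500 genes and stayed within 10% mitochondrial UMIs were kept and assigned to classes by marker genes, none of which is a chaperone of the list. In the mix, 7 classes had at least 20 cells in every library: 574 tumor-like, 3156 macrophage-like, 761 microglia-like, 1802 T-like, 228 NK-like, 312 dendritic-cell-like and 476 endothelial-like cells. No gate had a marker of another class among its 10 leading genes, which gating by these markers itself makes likely. Some tumor-like and dendritic-cell-like markers were taken from leading genes that an earlier analysis of these data reported.

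The labels of 7 of the 8 sequencing entries of the CD11b+ shSELP library carry a description that names the negative control, so the direction in CD11b+ cells rests on the title, source and genotype given for them and on the column names of the count table, which give the same groups. Selp, the targeted gene, had 1, 1, 0 and 0 UMIs in the tumor-like cells of shNC 1, shNC 2, shSELP 1 and shSELP 2. The limit of 3 UMIs that a count of 0 allows corresponds to 3.57 and 5.78 counts per 1000000 UMIs (CPM) in the shSELP libraries, above the 0.235 and 0.346 CPM of the shNC libraries. So few UMIs could not show a knockdown, and the groups are those of the labels. In endothelial-like cells of the host, Selp had 8, 12, 15 and 7 UMIs, or 58.6, 65.1, 8.86 and 15.0 CPM. In CD11b+ cells it had 4 UMIs in each library.

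In the mix, the chaperones as a group were most abundant in the library shSELP 1, in 6 of the 7 classes. Their summed level in tumor-like cells was 5019 and 5182 CPM in the shNC libraries and 5839 and 5592 CPM in the shSELP libraries. In T-like cells it was 3901 and 4219.7 CPM in shNC and 5684 and 4541 CPM in shSELP. In endothelial-like cells it was 3994 and 3902 CPM in shNC and 5997 and 5137 CPM in shSELP. In these classes, and in microglia-like and dendritic-cell-like cells, both shSELP libraries lay above both shNC libraries, and shSELP 1 stood highest. In macrophage-like cells the sum was 3295 and 3712 CPM in shNC and 4361 and 3687 CPM in shSELP, so that shSELP 2 fell within the shNC range. NK-like cells had the opposite order, with 4743 and 3835 CPM in shNC and 3749 and 3685 CPM in shSELP. Because Hspa8 gave 49.6% of the UMIs counted over the 10 genes, the sum was also taken without it, and each of the 7 classes had the same order of groups.

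**Figure D1:**
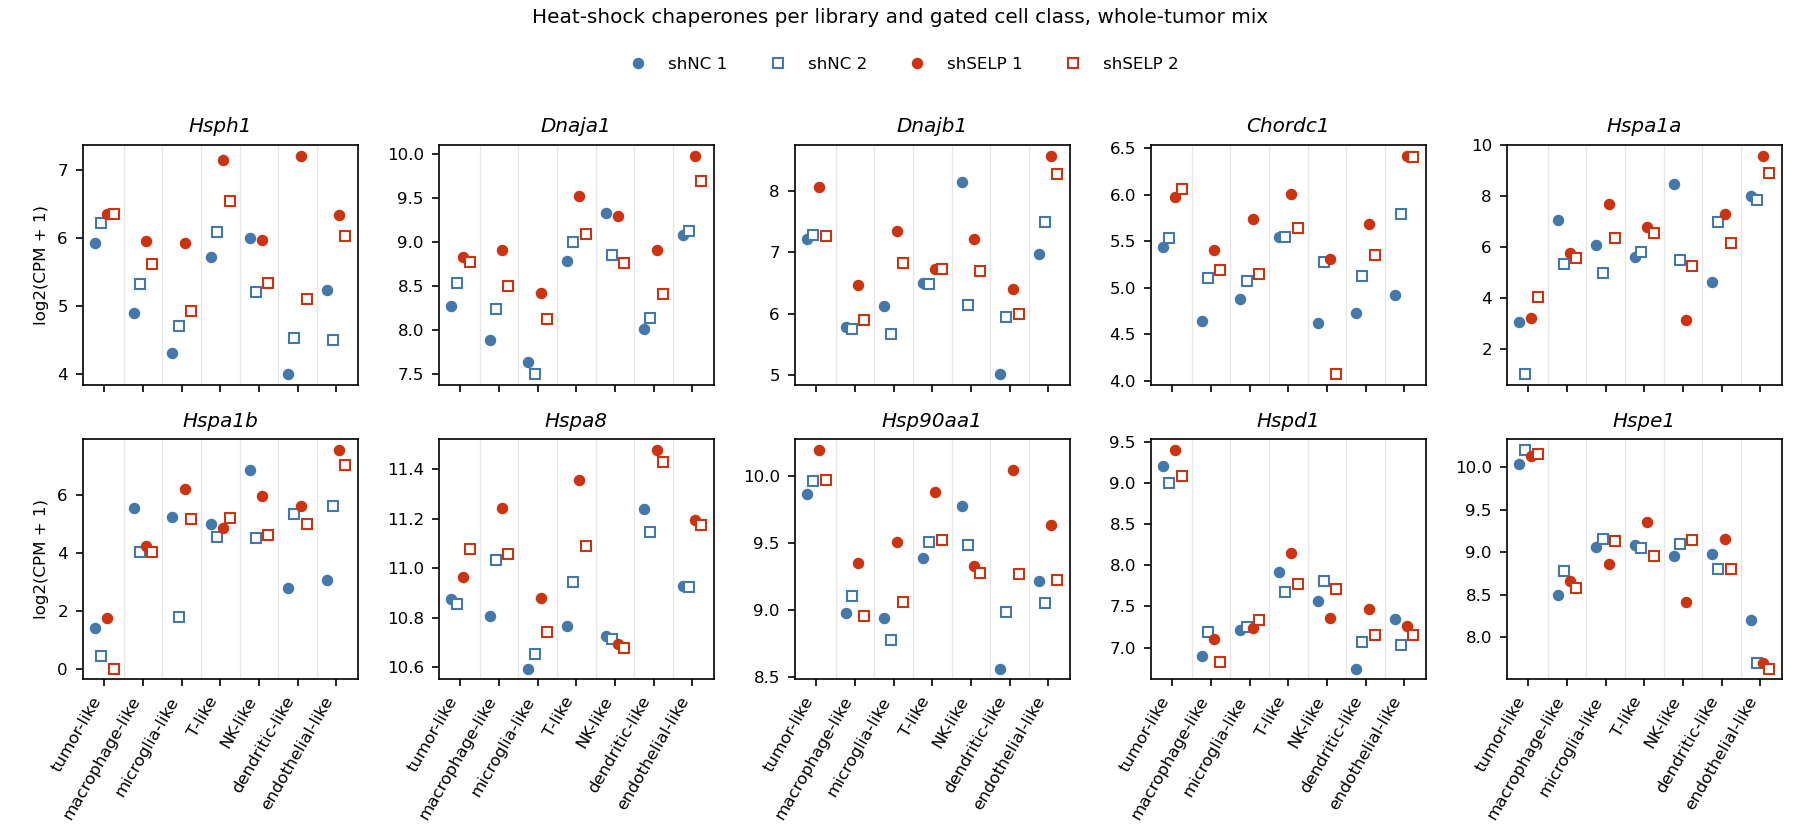
Level of each of the 10 chaperones, as log2(CPM + 1) of UMIs summed per library, in 7 gated cell classes of the whole-tumor mix, with 1 point per library (shNC blue, shSELP red, replicate 1 filled circles, replicate 2 open squares) and a separate axis range in each panel. Of the 70 sets of points, shSELP 1 is the highest library in 46, and each gene but Hsph1 varies more between classes than between libraries.

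Hsph1, the Hsp110 protein that recharges Hsp70, was the member with the largest share of its variation between libraries. It stood at 28.9 and 39.0 CPM in the shNC libraries and 60.9 and 47.9 CPM in the shSELP libraries of macrophage-like cells. In microglia-like cells it stood at 18.9 and 25.02 CPM in shNC and 59.8 and 29.5 CPM in shSELP. In T-like cells it stood at 51.8 and 67.3 CPM in shNC and 141 and 92.3 CPM in shSELP. In each of these classes both shSELP libraries exceeded both shNC libraries, and shSELP 1 was the highest. Dendritic-cell-like cells had 15.0 and 22.1 CPM in shNC against 147 and 33.2 CPM in shSELP. Endothelial-like cells had 36.6 and 21.7 CPM in shNC against 80.3 and 64.3 CPM in shSELP. Tumor-like cells had 59.7 and 73.7 CPM in shNC against 80.8 and 80.9 CPM in shSELP. The groups did not overlap in these classes either, but in dendritic-cell-like cells most of the difference came from shSELP 1, and in tumor-like cells shNC 2 lay close to the shSELP libraries. NK-like cells had 62.8 and 35.8 CPM in shNC and 61.97 and 39.5 CPM in shSELP, so that the groups overlapped. The fitted log2 fold change of Hsph1, shSELP over shNC, ran from 0.04 ± 0.51 (SE, n = 2 libraries a group) in NK-like cells to 2.14 ± 0.67 in dendritic-cell-like cells. Without shSELP 1 the fit for dendritic-cell-like cells gave 0.77, and that for microglia-like cells 0.37 in place of 0.98.

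Dnaja1, a J-domain protein that delivers clients to Hsp70, had both shSELP libraries above both shNC libraries in 6 classes. Its levels in macrophage-like cells were 236 and 301 CPM in shNC and 481 and 361 CPM in shSELP. Its levels in microglia-like cells were 199 and 180.4 CPM in shNC and 342 and 279.6 CPM in shSELP. Its levels in endothelial-like cells were 542 and 559 CPM in shNC and 1009.9 and 827 CPM in shSELP. In these 3 classes each shSELP library stood above both shNC libraries, with shSELP 1 highest. Tumor-like cells held 309 and 371 CPM in shNC and 454 and 437 CPM in shSELP. T-like cells held 439 and 513 CPM in shNC and 736 and 544 CPM in shSELP. The groups did not overlap in either class, but in T-like cells shSELP 2 lay near the higher shNC library. Dendritic-cell-like cells held 258 and 282 CPM in shNC and 481 and 340.4 CPM in shSELP, without overlap. NK-like cells held 644 and 461 CPM in shNC and 627 and 435 CPM in shSELP, where the groups overlapped.

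Dnajb1, a second J-domain partner of Hsp70 and itself strongly heat-inducible, stood above in 5 classes. For T-like cells, counted among the 5, the fitted log2 fold change was 0.26 and turned to -0.003 with thinned cells. In microglia-like cells Dnajb1 was 68.9 and 50.04 CPM in shNC and 161 and 112 CPM in shSELP. In endothelial-like cells it was 125 and 179 CPM in shNC and 379 and 306 CPM in shSELP. In both classes every shSELP library exceeded every shNC library, by a ratio of group means of 2.30 and 2.26. In tumor-like cells it was 147 and 155 CPM in shNC and 266 and 152 CPM in shSELP. There shSELP 1 alone stood out and shSELP 2 lay within the shNC range, and without shSELP 1, as with thinned cells, the fitted difference changed sign. In NK-like cells the lone high library was shNC 1, with 283 and 69.5 CPM in shNC and 147 and 103 CPM in shSELP.

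Chordc1, a co-chaperone that binds Hsp90, also stood above in 6 classes. It was 42.3 and 45.3 CPM in the shNC libraries and 61.8 and 65.5 CPM in the shSELP libraries of tumor-like cells. It was 29.3 and 54.3 CPM in shNC and 84.5 and 83.6 CPM in shSELP in endothelial-like cells. In both classes the shSELP libraries lay close together, above both shNC libraries. In NK-like cells Chordc1 did not pass the filter on low counts, and its 23.6 and 37.8 CPM in shNC overlapped with 38.7 and 15.8 CPM in shSELP. Hsp90aa1, the inducible cytosolic Hsp90, had both shSELP libraries above in 5 classes. In dendritic-cell-like cells it was 378 and 507 CPM in shNC and 1058 and 617 CPM in shSELP. In tumor-like cells it was 935 and 996 CPM in shNC and 1172 and 1004 CPM in shSELP. The groups were apart in both, but in tumor-like cells shSELP 2 exceeded shNC 2 by less than the shNC libraries differed from each other. Without shSELP 1 the fitted log2 fold change of Hsp90aa1 was -0.03 in tumor-like cells in place of 0.12, and 0.42 in dendritic-cell-like cells in place of 0.92. In macrophage-like cells they overlapped, with 504 and 551 CPM in shNC and 652 and 496 CPM in shSELP. In NK-like cells they were reversed, with 879 and 717 CPM in shNC and 643 and 619 CPM in shSELP.

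Hspa8, the constitutive cytosolic Hsp70, had both shSELP libraries above both shNC libraries in 6 classes, with a ratio of group means of at most 1.29. In T-like cells it was 1742 and 1971 CPM in shNC and 2618 and 2178 CPM in shSELP. In endothelial-like cells it was 1949 and 1943 CPM in shNC and 2342 and 2314 CPM in shSELP. In NK-like cells it was 1696 and 1679 CPM in shNC and 1658 and 1639 CPM in shSELP. Both shSELP libraries were the higher in T-like and endothelial-like cells and the lower in NK-like cells, where all 4 libraries lay within 1.04-fold of each other. The ratio of group means ran from 0.977 in NK-like cells to 1.29 in T-like cells. In tumor-like cells, counted among the 6, the fitted log2 fold change of Hspa8 was 0.10 and turned to -0.12 with the stricter gate.

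Hspa1a and Hspa1b encode the inducible Hsp70, nearly absent from resting cells of many types. Hspa1a was 66.1 and 30.8 CPM in shNC and 203 and 80.8 CPM in shSELP in microglia-like cells. It was 256 and 228 CPM in shNC and 761 and 474 CPM in shSELP in endothelial-like cells. It was 47.5 and 54.2 CPM in shNC and 109 and 91.4 CPM in shSELP in T-like cells. Both shSELP libraries were above both shNC libraries in these 3 classes and in tumor-like cells, where levels were low at 7.29 and 1.04 CPM in shNC and 8.32 and 15.4 CPM in shSELP. The tumor-like order rested on 31, 3, 7 and 8 UMIs, and the log2 fold change ran from 0.55 to 3.32 with 1 library left out. In macrophage-like cells the highest library was shNC 1, with 133 and 38.9 CPM in shNC against 53.3 and 46.8 CPM in shSELP. In NK-like cells Hspa1a was 353 and 43.7 CPM in shNC and 7.75 and 36.9 CPM in shSELP, from 45, 22, 1 and 14 UMIs. The high value of shNC 1 came from few cells: of its 31 NK-like cells with at least 2000 UMIs, 9.68% held a UMI of Hspa1a after thinning to that depth. Hspa1b had both shSELP libraries above only in endothelial-like cells among the 7 classes, at 7.33 and 48.8 CPM in shNC and 188 and 131 CPM in shSELP. In macrophage-like cells it was 46.3 and 15.3 CPM in shNC and 18.1 and 15.6 CPM in shSELP, again with shNC 1 highest. The 2 genes lie 9951 bases apart on chromosome 17 and have nearly the same sequence, so how their reads were divided between them is uncertain. Their summed level in macrophage-like cells was 179 and 54.2 CPM in shNC and 71.4 and 62.4 CPM in shSELP.

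Hspd1 and Hspe1 encode the mitochondrial Hsp60 and Hsp10. Hspd1 in tumor-like cells was 589 and 511 CPM in shNC and 674 and 541 CPM in shSELP. Hspd1 in microglia-like cells was 147 and 151 CPM in shNC and 149.7 and 161 CPM in shSELP. The groups overlapped in both classes, and in 6 of the 7 classes in all. The exception was dendritic-cell-like cells, with 106 and 133 CPM in shNC and 176 and 141 CPM in shSELP, both shSELP above and a ratio of group means of 1.33. The fitted difference there changed sign with the stricter gate and with thinned cells. Hspe1 in tumor-like cells was 1049 and 1176 CPM in shNC and 1119.5 and 1135 CPM in shSELP. Hspe1 in endothelial-like cells was 293 and 206 CPM in shNC and 207 and 197 CPM in shSELP. Its groups overlapped in each of the 7 classes, and its ratio of group means ran from 0.809 to 1.07.

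Counted over members, both shSELP libraries lay above both shNC libraries for 6 of the 10 genes in tumor-like cells, where 26.1% of all genes tested did so. The count was 5 in macrophage-like cells (15.8% of all genes), 7 in microglia-like cells (27.3%), 7 in T-like cells (20.3%), 7 in dendritic-cell-like cells (19% of all genes) and 8 in endothelial-like cells (25%). It was 0 in NK-like cells (21.1% of all genes). There Hspa1a, Hspa8 and Hsp90aa1 had both shSELP libraries below both shNC libraries, as did 13.7% of all genes. Over the 70 pairs of a gene and a class, 40 had shSELP above, 27 overlapped and 3 had shSELP below, and 68 passed the filter on low counts, with Hspa1b in tumor-like and Chordc1 in NK-like cells left out. The median fitted log2 fold change of the members was 0.23 in tumor-like, 0.22 in macrophage-like, 0.57 in microglia-like, 0.30 in T-like, -0.23 in NK-like, 0.58 in dendritic-cell-like and 0.83 in endothelial-like cells. The same median over all genes tested lay between -0.01 and 0.01 in each class. Members past an edgeR adjusted p of 0.05 were Dnajb1 (adjusted p = 0.0160) and Hspa1a (0.0478) in microglia-like cells, where 1.3% of all genes passed, and Hspa1a (0.0385) in T-like cells, where 0.101% did. With 1 library left out the log2 fold change of Hspa1a in microglia-like cells, 1.62, ran from 0.84 to 2.20. Over 13 alternative settings that of Hspa1a in T-like cells, 0.99, ran from 0.46 to 1.14. That of Dnajb1 in microglia-like cells, 1.20, ran from 0.88 to 1.43 over as many. No member passed in tumor-like (0.359% of all genes), macrophage-like (0.191%), NK-like (0.0304%) or endothelial-like cells (0.195%). In dendritic-cell-like cells no gene passed with edgeR (0%). There, 314 genes stood at an unadjusted p below 0.05, and 1 gene was called by DESeq2. Since the members were chosen from this contrast, nothing is read from these counts.

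The library shSELP 1 held the highest of the 4 values in 46 of the 70 pairs, shNC 1 in 11, shSELP 2 in 8 and shNC 2 in 5. Centred within each class and averaged over the classes, the log2 level of Dnaja1 was -0.27 in shNC 1, -0.22 in shNC 2, 0.42 in shSELP 1 and 0.06 in shSELP 2. For Hsp90aa1 the same averages were -0.14, -0.12, 0.32 and -0.06, so that shSELP 2 lay nearer to the shNC libraries than to shSELP 1. Without shSELP 1 the median log2 fold change of the members was 0.12 in tumor-like, 0.10 in macrophage-like, 0.28 in microglia-like, 0.19 in T-like, -0.38 in NK-like, 0.32 in dendritic-cell-like and 0.77 in endothelial-like cells. The median was thus lower in each of the 7 classes without that library.

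The members differed in how much of their variation followed the cell class and how much the library. Of the variance of log2 level over 28 points (4 libraries in 7 classes), the library took 39.3% for Hsph1, 30.1% for Chordc1 and 21.8% for Dnaja1. It took 20.9% for Hsp90aa1, 20% for Hspa8 and 14.8% for Dnajb1. For the inducible Hsp70 genes it took 3.44% for Hspa1a and 7.28% for Hspa1b, and for the mitochondrial pair 0.744% for Hspd1 and 0.252% for Hspe1. Class took 94.8% for Hspd1 and 93.2% for Hspe1 but 34.6% for Hsph1. Within classes, Hsph1 and Hsp90aa1 had a Pearson correlation of 0.89 over these points, Hsph1 and Dnaja1 0.87, and Dnajb1 and Hspa1b 0.82. Hspe1 had 0.59 with Hspd1, -0.53 with Hspa1b and -0.39 with Chordc1. These points share libraries and depth, so the correlations describe the 28 values only.

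Other measures moved with the libraries. The library shSELP 1 was also the shallowest, with a median of 6164 UMIs per kept cell against 9547 in shNC 1, 8051 in shNC 2 and 9880 in shSELP 2. The median share of mitochondrial UMIs was 2.93%, 2.50%, 2.93% and 2.22% in the same libraries in the order shNC 1, shNC 2, shSELP 1 and shSELP 2. Within tumor-like cells the groups differed in quality: median UMIs were 15832 and 16932 in shNC and 13091 and 6420.0 in shSELP. Their median mitochondrial share was 2.53% and 2.14% in shNC and 1.78% and 0.722% in shSELP, from 279 and 180 against 61 and 54 cells. The library shSELP 1 held 352 endothelial-like cells, against 21, 30 and 73 in shNC 1, shNC 2 and shSELP 2. The 9 endothelial markers summed to 125, 184, 1347 and 359 CPM over all kept cells, with Flt1 the most abundant. The 16 immediate early genes, which also rise when tissue is dissociated, summed to 10686 and 9159 CPM in the shNC and 16271 and 13863 CPM in the shSELP libraries of microglia-like cells, both shSELP above. Their sum also had both shSELP above in T-like cells, at 5420.3 and 5924 CPM in shNC and 6362 and 6399 CPM in shSELP. Gene by gene, however, 5 of the 16 had both shSELP above there (20.3% of all genes) and 6 both below (21.2%). In endothelial-like cells the sum again had both shSELP above, at 34699.8 and 36069.9 CPM in shNC and 45958 and 51071 CPM in shSELP. There 11 of the 16 genes had both shSELP above (25% of all genes) and 0 both below (23.1%). In microglia-like cells 12 of the 16 had both above (27.3% of all genes) and 0 both below (19.3%). In these 3 classes the chaperone sum had the same order. In tumor-like cells the immediate early genes summed to 17709 and 20378 CPM in shNC and 14119 and 13794 CPM in shSELP. Both shSELP were below, while the chaperone sum had the opposite order. Gene by gene, 1 had both shSELP above there (26.1% of all genes) and 11 both below (21.1%). The sums of the groups overlapped in NK-like and dendritic-cell-like cells. They also overlapped in macrophage-like cells, at 8981 and 9512 CPM in shNC and 9472 and 10055 CPM in shSELP. The part of the immediate early genes, depth, mitochondrial share and endothelial cells in the chaperone levels was not tested.

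Per cell, the summed chaperones were compared in macrophage-like and T-like cells. With each cell thinned to 2000 UMIs, macrophage-like cells held a median of 6 and 7 chaperone UMIs in shNC 1 and shNC 2 and 8 and 7 in shSELP 1 and shSELP 2. The 10% of cells with the most chaperone UMIs held 26.6% and 21.0% of them in shNC and 19.7% and 20.7% in shSELP. T-like cells held a median of 6 and 7 in shNC and 9 and 7 in shSELP, so that shSELP 1 alone was higher. Dnaja1 was detected in 36.6% and 41.8% of thinned macrophage-like cells in shNC and in 57.3% and 50.4% in shSELP. Unthinned, these shares were 83.5% and 88.9% in shNC and 93.8% and 95.4% in shSELP, in the same order of groups. Thinning left out 158, 170, 241 and 198 of all kept cells of shNC 1, shNC 2, shSELP 1 and shSELP 2. In the same order it retained 925 of 935, 795 of 804, 550 of 559 and 847 of 858 macrophage-like cells. Of T-like cells it retained 424 of 457, 441 of 460, 401 of 416 and 465 of 469.

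The comparison between cell classes of the same libraries was independent of how the genes were chosen. All 7 classes entered a single edgeR fit with library as a block, each class was compared with macrophage-like cells, and p-values were adjusted over all 11191 genes. Hspd1 averaged 579 ± 71.0 CPM in tumor-like and 128 ± 15.3 CPM in macrophage-like cells (SD, n = 4 libraries). Its log2 fold change was 1.44 ± 0.13 (SE, edgeR adjusted p = 2.20e-11), and it was higher in 4 of 4 libraries. Hspe1 averaged 1120 ± 52.7 CPM in tumor-like and 396 ± 32.9 CPM in macrophage-like cells, a log2 fold change of 0.76 ± 0.14 (edgeR adjusted p = 2.21e-05), higher in 4 of 4 libraries. Hspa1a averaged 8.02 ± 5.89 CPM in tumor-like and 68.1 ± 43.8 CPM in macrophage-like cells. Tumor-like cells thus had a log2 fold change of -4.18 ± 0.64 (edgeR adjusted p = 8.59e-07), lower in 4 of 4 libraries. Hspa1b was also lower in 4 of 4, at 1.65 and 0.346 CPM in shNC and 2.38 and 0 CPM in shSELP. It averaged 23.8 CPM in macrophage-like cells. Within tumor-like cells Hspa1b did not pass the filter on low counts. Its call, counted among the 4 lower members below, is not relied on here. Of the 10 members, 3 were higher and 4 lower in tumor-like cells, where 70.5% of all genes passed the test, so that the count itself says little.

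Endothelial-like cells had the reverse pattern for Hspa1a and Hspe1. Hspa1a averaged 430 ± 246 CPM there, a log2 fold change of 1.95 ± 0.46 over macrophage-like cells (edgeR adjusted p = 0.000472), higher in 4 of 4 libraries. That fold change ran from 1.58 to 2.80 with 1 library left out. Hspe1 averaged 226 ± 45.1 CPM, a log2 fold change of -1.58 ± 0.16 (edgeR adjusted p = 4.32e-10), lower in 4 of 4 libraries. Dnajb1 averaged 247 ± 116 CPM in endothelial-like and 180 ± 57.5 CPM in tumor-like cells against 63.2 ± 16.5 CPM in macrophage-like cells. Its log2 fold changes were 1.305 ± 0.23 (edgeR adjusted p = 1.33e-05) and 0.79 ± 0.21 (edgeR adjusted p = 0.00143), each higher in 4 of 4 libraries. In endothelial-like cells 4 members were higher and 4 lower, where 61.4% of all genes passed. Hspa1b was among the higher at 1.54 ± 0.45 (edgeR adjusted p = 0.00399), in 3 of 4 libraries. Without shSELP 1 its log2 fold change was 1.01 and no longer passed with edgeR (adjusted p = 0.166).

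**Figure D2:**
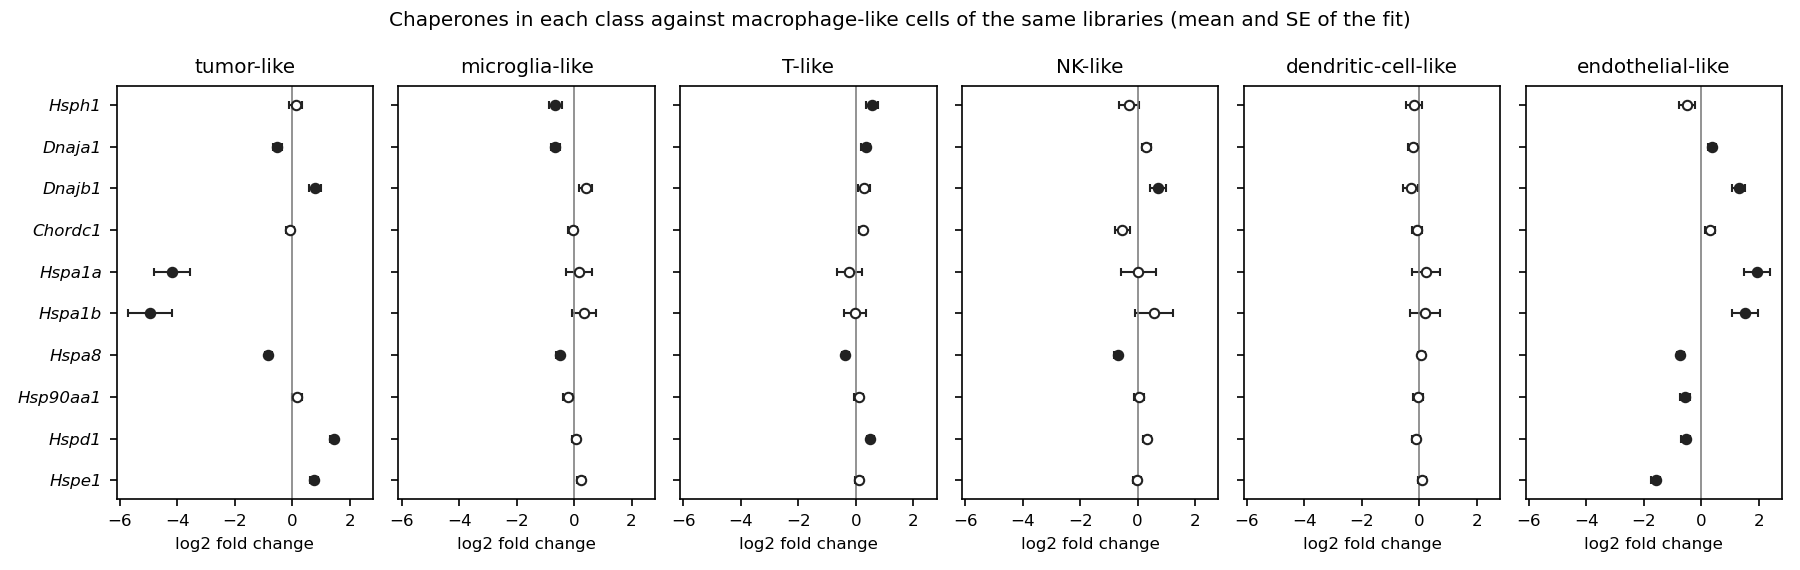
Log2 fold change of each chaperone in 6 cell classes against macrophage-like cells of the same 4 libraries, from a single edgeR fit with library as a block (points, fitted value; bars, SE; filled points, adjusted p under 0.05). Hspd1 and Hspe1 were higher and Hspa1a lower in tumor-like cells, and Hspa1a was higher and Hspe1 lower in endothelial-like cells. Hspa1b, at 2.38 CPM or less per library in tumor-like cells, did not pass the filter on low counts within that class.

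The other immune classes were compared with macrophage-like cells in the same fit. In T-like cells 3 members were higher and 1 lower, with 61.8% of all genes past the test. Hspd1 averaged 236 ± 35.2 CPM there, a log2 fold change of 0.51 ± 0.13 (edgeR adjusted p = 0.000971), higher in 4 of 4 libraries. Hsph1, at 88.1 ± 39.0 CPM, had a log2 fold change of 0.57 ± 0.20 (edgeR adjusted p = 0.0168), also higher in 4 of 4 libraries, but did not pass with DESeq2 (adjusted p = 0.0822). Dnaja1, the other higher member of T-like cells, lost its call under 4 of 9 alternatives. In microglia-like cells 3 members were lower and none higher, with 33.6% of all genes past the test. Of these, Hsph1 lost its call under 6 of 9 alternatives, with an adjusted p of up to 0.516. Dnaja1 averaged 250 ± 74.6 CPM there against 345 ± 104 CPM in macrophage-like cells, a log2 fold change of -0.65 ± 0.15 (edgeR adjusted p = 0.000760), lower in 4 of 4 libraries. Hspa8 was lower in microglia-like cells by a log2 fold change of -0.50 ± 0.12 (edgeR adjusted p = 0.000973) and in NK-like cells by -0.69 ± 0.12 (edgeR adjusted p = 1.98e-05), in 4 of 4 libraries each. In NK-like cells 1 member was higher and 1 lower (40.1% of all genes), and the higher, Dnajb1, lost its call under 3 of 9 alternatives. Dnaja1 in endothelial-like cells lost its call under 2 of 9, and in dendritic-cell-like cells 0 of 10 passed with edgeR (39.9% of all genes). TMM scaling moved tumor-like and endothelial-like cells by 0.76 log2 each relative to macrophage-like cells, T-like cells by 0.38 and NK-like cells by 0.37. With total UMIs in its place, the lower values of Dnaja1 in tumor-like cells, Hspa8 in T-like cells, and Hspa8, Hsp90aa1 and Hspd1 in endothelial-like cells changed sign, and these 5 differences are not relied on here. The lower Hspa8 of tumor-like cells also no longer passed with total UMIs.

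In CD11b+ cells of day 21, 8 of the 10 chaperones were higher in the shSELP library than in the shNC library and the inducible Hsp70 genes were lower. With 1 library a group there is no test, the difference has no replicate check, and the intervals below (95%, exact) cover counting error only. Hsph1 had 212 UMIs in shNC and 1317 in shSELP, or 16.9 and 115 CPM. Its ratio of 6.83 (5.90 to 7.93) was the largest of the 10. Chordc1 had 287 and 820 UMIs, a ratio of 3.14 (2.74 to 3.60), and Dnaja1 2178 and 5342 UMIs, a ratio of 2.70 (2.56 to 2.83). Hspd1 followed with a ratio of 1.96 (1.83 to 2.09) and Hsp90aa1 with 1.78 (1.71 to 1.84). Hspa8 stood at 1.51 (1.48 to 1.54), Hspe1 at 1.47 (1.42 to 1.53) and Dnajb1 at 1.27 (1.13 to 1.43). Hspa1a, in contrast, had 674 UMIs in shNC and 257 in shSELP, a ratio of 0.419 (0.361 to 0.484), and Hspa1b 194 and 86 UMIs, a ratio of 0.487 (0.373 to 0.631). Of the members, 6 were at least 1.5-fold higher, as were 7.84% of the 8569 genes with at least 100 UMIs, and 2 were at least 1.5-fold lower, as were 2.33%. The list was drawn up with this contrast known as well, and nothing is read from these counts. The median ratio was 1.64 over the members and 1.07 over all these genes.

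Within CD11b+ cells, macrophage-like and microglia-like cells had the same direction for Hsph1. It rested on 176 and 1113 UMIs in macrophage-like cells, a ratio of 6.83 (5.82 to 8.06). It rested on 15 and 51 UMIs in microglia-like cells, a ratio of 3.88 (2.15 to 7.43). Dnaja1 had a ratio of 2.69 (2.54 to 2.85) in macrophage-like and 2.45 (2.05 to 2.94) in microglia-like cells. Hspa1a had a ratio of 0.510 (0.434 to 0.597) in macrophage-like cells, while in microglia-like cells its 18 and 13 UMIs gave 0.825 (0.371 to 1.78), where a difference was not detectable. Hspa1b had 0 and 7 UMIs in microglia-like cells. With cells thinned to 2000 UMIs, Hsph1 was detected in 3.51% of macrophage-like cells in shNC and 21.1% in shSELP, and unthinned in 7.03% and 37.7%. The median number of chaperone UMIs per thinned macrophage-like cell was 6 in shNC and 10 in shSELP, and 10% of cells had at most 2 and 5. Thinning left out 395 shNC and 388 shSELP cells of all kept cells. Of macrophage-like cells it retained 1821 of 2034 in shNC and 1928 of 2203 in shSELP. The median depth of kept cells was 4209 UMIs in shNC and 3737 in shSELP, and their median mitochondrial share was 2.93% and 2.38%. The 16 immediate early genes summed to 12302 CPM in shNC and 8504 CPM in shSELP, a ratio of 0.691 (0.686 to 0.697), opposite to most of the chaperones. Their part in the difference was not tested.

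**Figure D3:**
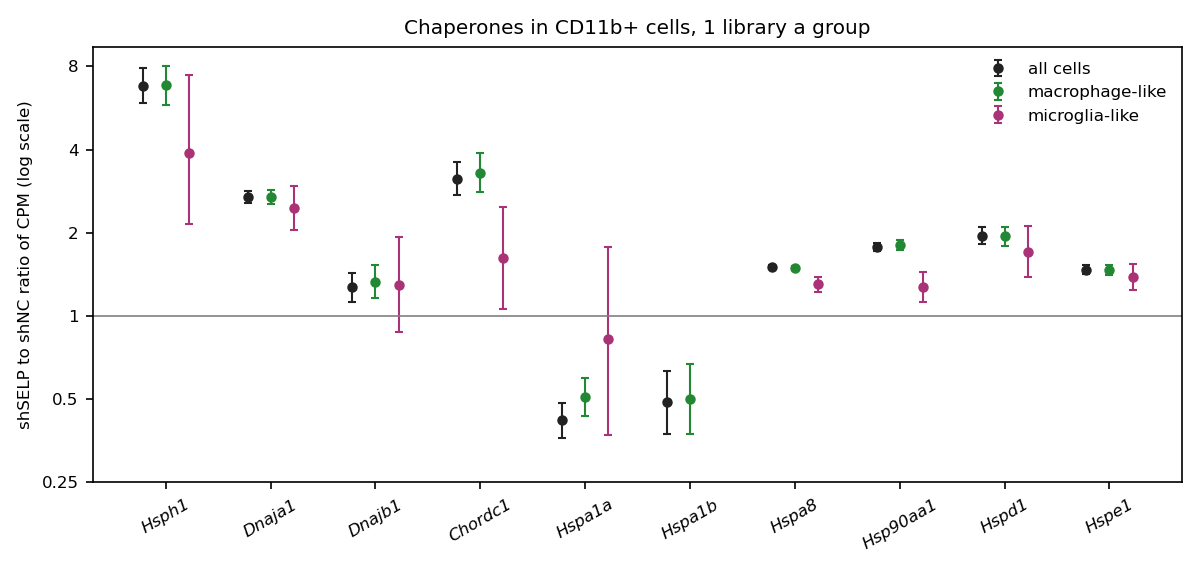
Ratio of CPM, shSELP over shNC, of each chaperone in the CD11b+ libraries (1 a group; log axis; bars, exact 95% intervals for counting error only) over all kept cells, macrophage-like and microglia-like cells. Hsph1 reaches 6.83 over all cells, Hspa1a and Hspa1b lie below 1, and Hspa1b has no point in microglia-like cells, where shNC had 0 UMIs.

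The mix and the CD11b+ cells differ in day and sorting and were not compared by a test. The ratio of Hsph1 in macrophage-like cells was 1.60 in the mix and 6.83 in CD11b+ cells, and that of Dnaja1 1.57 and 2.69. For Hspd1 the ratio was 0.944 in the mix, with overlapping groups, and 1.94 in CD11b+ cells. For Hspa1a it was below 1 in both, at 0.582 and 0.510, with overlapping groups in the mix. The mix value rested on shNC 1, and without that library the fitted log2 fold change was 0.43.

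Beside the members, 10 lists with 91 genes of protein folding, the heat-shock response and immediate early genes were tested between shSELP and shNC. The lists, too, were drawn up with earlier results of these data known, so their calls are given as a description. Among 16 co-chaperones of Hsp90 and Hsp70, such as Bag3, 0 passed in any class with edgeR, and the median log2 fold change ran from -0.17 in NK-like to 0.32 in dendritic-cell-like cells. The 6 other cytosolic Hsp70, Hsp110 and Hsp90 genes, the 7 other J-domain proteins, the 8 subunits of the chaperonin TRiC, the 7 other mitochondrial chaperones and proteases and the 3 heat-shock factors had 0 calls each. Hsp90ab1, the constitutive partner of Hsp90aa1, had both shSELP libraries above in dendritic-cell-like (log2 fold change 0.40) and endothelial-like cells (0.37), without passing. Its groups overlapped in the other classes, at 1487 and 1762 CPM in shNC and 2043 and 1702 CPM in shSELP in macrophage-like cells. Hsf1, the heat-shock factor itself, was 15.0 and 17.8 CPM in shNC and 20.4 and 18.7 CPM in shSELP there, both shSELP above, with an edgeR adjusted p of 0.38. Bag3, which links Hsp70 to autophagy, was 20.3 and 21.7 CPM in shNC and 28.8 and 22.6 CPM in shSELP in the same cells. In dendritic-cell-like cells Hsf1 had both shSELP libraries below, at 31.5 and 26.5 CPM in shNC and 11.0 and 22.8 CPM in shSELP. In tumor-like cells the groups overlapped for both, with log2 fold changes of -0.36 for Hsf1 and -0.47 for Bag3.

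Hspb1, a small heat-shock protein that holds unfolded clients without ATP, was the call among the 4 small heat-shock proteins. In T-like cells it was 1.44 and 0.838 CPM in shNC and 19.5 and 27.6 CPM in shSELP, a log2 fold change of 4.37 ± 0.38 (edgeR adjusted p = 0.00183) with both shSELP libraries above. In tumor-like cells it was 0.235 and 2.08 CPM in shNC and 9.51 and 34.7 CPM in shSELP, a log2 fold change of 4.20 ± 0.87 that did not pass (edgeR adjusted p = 0.0822). It rested on 1, 6, 8 and 18 UMIs and ran from 3.12 to 6.04 with 1 library left out. In microglia-like cells it was 8.49 and 7.70 CPM in shNC and 29.0 and 8.74 CPM in shSELP, where the difference rested on shSELP 1 and the log2 fold change fell from 1.29 to 0.12 without it. In macrophage-like cells the groups overlapped, at 9.63 and 1.21 CPM in shNC and 8.08 and 5.80 CPM in shSELP. In endothelial-like cells, where it was most abundant, it was 989 and 2002 CPM in shNC and 2456 and 1618 CPM in shSELP, and the groups overlapped. The summed endothelial markers, 125 and 184 CPM in shNC and 1347 and 359 CPM in shSELP over all kept cells, were highest in shSELP 1. Hspb1 was highest in shSELP 2 in T-like and tumor-like cells. It was highest in shSELP 1 in microglia-like and endothelial-like cells and in shNC 1 in macrophage-like cells. The part of endothelial cells in Hspb1 was not tested. In CD11b+ cells it had 98 UMIs in shNC and 14 in shSELP, a ratio of 0.157 (0.0828 to 0.276). Of 5 other genes that respond to heat-shock factor 1, Ier5 passed in microglia-like cells, at 394 and 337 CPM in shNC and 688 and 543 CPM in shSELP (log2 fold change 0.71 ± 0.16, edgeR adjusted p = 0.0478). It no longer passed without shNC 2 (adjusted p = 0.391) or with thinned cells, while its log2 fold change ran from 0.56 to 0.85 with 1 library left out. Ier5 had both shSELP libraries below both shNC libraries in tumor-like (log2 fold change -0.73) and macrophage-like cells (-0.07). Both were above, without passing, in T-like (0.46), dendritic-cell-like (0.32) and endothelial-like cells (0.25), and the groups overlapped in NK-like cells.

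The endoplasmic reticulum, whose chaperones answer to a separate stress response, gave no call among 19 genes in any class with edgeR. The median log2 fold change of that list was 0.54 in tumor-like and -0.45 in dendritic-cell-like cells. In tumor-like cells 16 of the 19 genes had both shSELP libraries above (26.1% of all genes) and 1 both below (21.1%). In dendritic-cell-like cells 0 of the 19 had both above (19% of all genes) and 15 both below (17.1%). Hspa5, the Hsp70 of the endoplasmic reticulum, was 709.6 and 1161 CPM in shNC and 1632 and 1210.1 CPM in shSELP in tumor-like cells. It was 768 and 883 CPM in shNC and 707 and 525 CPM in shSELP in dendritic-cell-like cells. The shSELP libraries were thus both the higher in tumor-like and both the lower in dendritic-cell-like cells. Both were also the higher in microglia-like, T-like and endothelial-like cells, as for Hsph1, and the groups overlapped in macrophage-like and NK-like cells. The list did not follow Hspa5 in T-like cells, where 11 of the 19 genes had both shSELP libraries below (21.2% of all genes). Only 2 had both above (20.3%), with a median of -0.08. Nor did the list follow Hspa5 in endothelial-like cells, where its median was -0.13. Of the 17 genes tested there, 3 had both shSELP libraries above (25% of all genes) and 3 both below (23.1%). In microglia-like cells the median was 0.04. There 6 of the 19 genes had both above, as Hspa5 did (27.3% of all genes), and 2 both below (19.3%). Of the 16 immediate early genes, Fosb, Jun, Jund, Egr1, Atf3 and Btg2 passed in microglia-like cells, with log2 fold changes from 0.77 for Atf3 to 1.20 for Jund (edgeR adjusted p = 0.0461 and 0.00176), and 0 in the other 6 classes. Of all genes, 1.3% passed in microglia-like cells. In CD11b+ cells, 10 of the 19 endoplasmic reticulum genes and 6 of 15 measured co-chaperones were at least 1.5-fold higher in shSELP and 0 of either list lower, beside 7.84% of all genes higher and 2.33% lower. Hspa5 had a ratio of 1.51 there, Hsp90ab1 of 1.58 and Hsf1 of 0.865 (0.700 to 1.07). The medians of the other lists in CD11b+ cells ran from 0.545 for the small heat-shock proteins to 1.41 for the other cytosolic Hsp70, Hsp110 and Hsp90 genes, beside 1.07 over all genes.

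Outside the lists, the genes whose levels most resembled the mean of the 10 chaperones over the 28 points, centred within classes, were Sertad1 (Pearson r = 0.83), Wac (0.79), Ddx5 (0.78), St3gal6 (0.77) and Ctnnb1 (0.76), out of 2973 genes of at least 50 CPM. Among the members, Dnajb1 resembled the mean of the other 9 most (0.87), followed by Hsp90aa1 (0.85) and Dnaja1 (0.80), and Hspe1 least (-0.20). In CD11b+ cells Sertad1 had a ratio of 0.717 (0.629 to 0.817) and Ctnnb1 of 1.48 (1.34 to 1.64).

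The promoters of the members were searched for the GAA blocks that heat-shock factors are known to bind, because several members were high in the same library. Of the 10 genes, 8 had a window in the RefSeq table of the build GRCm38.p6, from 250 bases before to 50 bases after the start. The letters searched were GAANNTTC and TTCNNGAA, each the same on both strands, and the runs of 3 blocks GAANNTTCNNGAA and TTCNNGAANNTTC, which are each other's reverse complement and contain both pairs. Of all 32851 windows, 7.86% held GAANNTTC, 8.52% held TTCNNGAA and 0.603% held a run of 3 blocks. A run of 3 was present for Hsph1, Chordc1, Hspd1 and Hspe1. Another window of Hspd1, chr1:55088194-55088493, held no pair or run. Hspa1a and Hspa1b held a single pair, as did Dnaja1 in a single window but not in its others. Dnajb1 held none in its windows. Hspa8 and Hsp90aa1, though annotated, had no window in that table, and no genome sequence was used here. The windows of Hspa1a and Hspa1b were identical at 296 of 300 bases. Hspd1 and Hspe1 are transcribed in opposite directions from a shared region on chromosome 1, where the annotated genes overlap by 112 bases, and their windows hold the same run. The windows of the 4 genes with a run and of Hspa1a, which stands for the nearly identical pair, are shown, 5′ to 3′ on the gene's strand, with the pairs and runs in capitals. They are chr5:149636266-149636565 (minus) for Hsph1, chr9:18292017-18292316 (plus) for Chordc1, chr1:55087883-55088182 (minus) for Hspd1, chr1:55087898-55088197 (plus) for Hspe1 and chr17:34972107-34972406 (minus) for Hspa1a. A match describes these letters and does not show that a factor binds there.
Hsph1: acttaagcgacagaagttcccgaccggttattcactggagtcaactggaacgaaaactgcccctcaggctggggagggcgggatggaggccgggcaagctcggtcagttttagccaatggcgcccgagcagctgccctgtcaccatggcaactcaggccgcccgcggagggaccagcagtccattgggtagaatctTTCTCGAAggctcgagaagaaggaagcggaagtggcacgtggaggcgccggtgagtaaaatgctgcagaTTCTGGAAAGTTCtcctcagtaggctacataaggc
Chordc1: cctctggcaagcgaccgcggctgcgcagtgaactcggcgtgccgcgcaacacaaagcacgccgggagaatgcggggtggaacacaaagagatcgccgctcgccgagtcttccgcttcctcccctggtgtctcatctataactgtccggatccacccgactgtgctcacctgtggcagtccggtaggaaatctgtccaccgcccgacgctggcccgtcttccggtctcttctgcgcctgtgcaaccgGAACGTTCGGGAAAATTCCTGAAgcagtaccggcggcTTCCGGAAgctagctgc
Hspd1: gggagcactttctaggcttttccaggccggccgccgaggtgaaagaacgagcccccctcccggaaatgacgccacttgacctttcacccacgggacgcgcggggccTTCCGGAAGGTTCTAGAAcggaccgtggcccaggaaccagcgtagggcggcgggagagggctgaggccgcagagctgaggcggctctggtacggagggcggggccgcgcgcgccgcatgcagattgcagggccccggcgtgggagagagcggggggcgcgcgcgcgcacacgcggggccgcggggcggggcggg
Hspe1: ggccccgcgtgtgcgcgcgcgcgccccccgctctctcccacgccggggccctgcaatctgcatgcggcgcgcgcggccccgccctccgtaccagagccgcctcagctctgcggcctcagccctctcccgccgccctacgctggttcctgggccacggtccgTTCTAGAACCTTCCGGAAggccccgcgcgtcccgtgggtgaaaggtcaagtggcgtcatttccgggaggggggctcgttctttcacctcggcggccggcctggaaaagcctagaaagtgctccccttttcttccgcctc
Hspa1a: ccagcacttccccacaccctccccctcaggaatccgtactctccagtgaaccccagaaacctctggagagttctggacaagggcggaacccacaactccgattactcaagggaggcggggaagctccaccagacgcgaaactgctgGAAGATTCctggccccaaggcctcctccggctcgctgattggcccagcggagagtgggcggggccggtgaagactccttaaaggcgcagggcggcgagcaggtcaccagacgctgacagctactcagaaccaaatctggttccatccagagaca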

How the data were processed

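The values were the UMI count tables deposited by the authors, from Cell Ranger 1.3 on mm10, with the count as the unit of each value. The members and the lists were chosen with earlier results of these data known, as were some tumor-like and dendritic-cell-like markers. Cells with under 500 genes or over 10% mitochondrial UMIs were left out (446 of 9172 in the mix, 189 of 5724 in the CD11b+ experiment). A cell entered a class with 3 of its markers detected and a score margin of 0.1, limits set after seeing the data. In the mix 995 kept cells (11.4%) entered none. No doublet caller was run. Counts were summed per library and class, so the library was the unit, with 2 a group.

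shSELP and shNC were compared within each class by the quasi-likelihood F test of edgeR 4.0.16, after filterByExpr and TMM scaling, with Benjamini-Hochberg adjustment over all genes tested. DESeq2 1.42.0 was the other tool. Classes were compared with macrophage-like cells in a single edgeR fit with library as a block. CD11b+ libraries, 1 a group, got exact conditional 95% intervals for counting error. Levels are CPM of the class. Cells were thinned to 2000 UMIs for per-cell values. Likeness is a Pearson correlation over genes of at least 50 CPM. With 2 libraries against 2, an exact permutation p cannot be below 0.333.

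Genes named outside the members were those called on the 10 lists (91 genes), the 5 most like the members, Selp, and Hsf1, Hspa5, Hsp90ab1 and Bag3, which were always named. R 4.3.3, Python 3.11.15, numpy 2.4.6, scipy 1.17.1, pandas 2.3.3 and matplotlib 3.10.9 were used.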

Additional observations from a re-analysis of the deposited data

Results flagged for a closer look

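Hspa1a in NK-like cells had both shSELP libraries below both shNC libraries, with a fitted log2 fold change of -2.42, against 0.99 to 1.62 in the 4 classes with the opposite order. Of these, tumor-like cells had 31, 3, 7 and 8 UMIs in shNC 1, shNC 2, shSELP 1 and shSELP 2. The NK-like value did not pass with edgeR (adjusted p = 0.913), and with 1 library left out it ran from -4.32 to -0.70. The difference between classes was not tested.

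Hspa8 in NK-like cells had both shSELP libraries below both shNC libraries, with a fitted log2 fold change of -0.10, against 0.10 to 0.39 in the 6 classes with the opposite order, of which tumor-like cells turned to -0.12 with the stricter gate. The NK-like value did not pass with edgeR (adjusted p = 0.996), and with 1 library left out it ran from -0.11 to -0.08. The difference between classes was not tested.

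Hsp90aa1 in NK-like cells had both shSELP libraries below both shNC libraries, with a fitted log2 fold change of -0.39, against 0.12 to 0.92 in the 5 classes with the opposite order. The NK-like value did not pass with edgeR (adjusted p = 0.970), and with 1 library left out it ran from -0.52 to -0.27. The difference between classes was not tested.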

How the results depend on the processing

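Genes called between shSELP and shNC numbered 36 in tumor-like, 21 in macrophage-like, 113 in microglia-like, 10 in T-like, 1 in NK-like, 0 in dendritic-cell-like and 10 in endothelial-like cells with edgeR. DESeq2 called 105 in tumor-like, 122 in macrophage-like, 22 in T-like, 1 in dendritic-cell-like and 28 in endothelial-like cells, and edgeR with DESeq2 size factors 0 in macrophage-like cells. With no filter on low counts the calls were 691 (tumor-like), 655 (macrophage-like), 436 (microglia-like), 298 (T-like), 19 (NK-like), 37 (dendritic-cell-like) and 292 (endothelial-like). With a replicate block they were 106, 49, 532, 3, 24, 30 and 68 in the same order. The stricter gate gave 47 in macrophage-like, 192 in microglia-like, 29 in T-like and 0 in NK-like cells. Thinning to 2000 UMIs gave 22 in tumor-like, 5 in macrophage-like, 7 in microglia-like, 6 in T-like, 0 in NK-like and 41 in endothelial-like cells. Without the 5% deepest cells there were 105 in tumor-like, 0 in macrophage-like, 3 in T-like and 38 in endothelial-like cells. In tumor-like cells every deposited cell gave 62, and total UMIs in place of TMM 76. With 1 library left out, calls ran from 15 to 508 (tumor-like), 0 to 87 (macrophage-like), 90 to 832 (microglia-like), 38 to 293 (T-like), 16 to 31 (NK-like), 1 to 103 (dendritic-cell-like) and 15 to 330 (endothelial-like). A lone library was then assumed to vary like the other group. The cause was not tested.

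The median log2 fold change of the chaperones, 0.83 in endothelial-like cells, was 0.96 with no filter and 0.48 thinned, and ran from 0.67 to 0.96 with 1 library left out. In microglia-like cells, at 0.57, it was 0.36 thinned and ran from 0.28 to 0.73. In dendritic-cell-like cells, at 0.58, it was 0.24 thinned and ran from 0.28 to 0.95. In tumor-like cells, at 0.23, it was 0.0578 thinned and 0.15 with the stricter gate, and ran from 0.12 to 0.34. It ran from 0.10 to 0.34 in macrophage-like, 0.19 to 0.49 in T-like and -0.43 to -0.19 in NK-like cells. The CD11b+ ratio of the summed chaperones, 1.64, was 1.54 with TMM scaling.

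Against macrophage-like cells, thinning gave 3578 calls for 7891 in tumor-like, 1819 for 3765 in microglia-like, 3405 for 6918 in T-like, 2405 for 4490 in NK-like, 2230 for 4469 in dendritic-cell-like and 3240 for 6870 in endothelial-like cells. Of the members' values there, 464 stayed the same, 39 were stronger, 31 weaker and 6 reversed. With total UMIs, added after the data were seen, the reversed values were Dnaja1 in tumor-like (0.23), Hspa8 in T-like (0.00757), and Hspa8 (0.0290), Hsp90aa1 (0.19) and Hspd1 (0.18) in endothelial-like cells. Thinned, Hspd1 in endothelial-like cells was 0.0662. The calls of Dnajb1, Hspa1a, Hspa1b, Hspd1 and Hspe1 in tumor-like, Dnajb1, Hspa1a and Hspe1 in endothelial-like, Hspd1 in T-like, Hspa8 in NK-like, and Hspa8 and Dnaja1 in microglia-like cells kept direction and threshold under 9 of 9 alternatives. That of Hspa1b in tumor-like cells rested on 2.38 CPM or less per library and is not relied on here.

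Limits: each group had 2 libraries in the mix and 1 in CD11b+ cells, and whether they are separate pools is not stated. A knockdown of Selp was not detectable. The members were chosen from the contrast between shSELP and shNC, so its values describe them. Day, sorting and experiment differ together between the mix and the CD11b+ cells. Depth, mitochondrial share, immediate early genes and endothelial cells also differed between libraries. Gates are set by markers, free RNA was not removed, and doublets were not called. Transcript levels say nothing of protein or of heat-shock factor activity.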

Other observations

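Classes with too few cells for a test also held chaperone UMIs. In mural-like cells of the mix, with 6, 12, 83 and 29 cells in shNC 1, shNC 2, shSELP 1 and shSELP 2, Hspa1a was 424, 393, 2449.9 and 912 CPM, from 19, 44, 604 and 200 UMIs. In neutrophil-like cells, with 8, 16, 28 and 18 cells, Hspa1a and Hspa1b had 0 UMIs in each of the 4 libraries, while Dnaja1 had 5, 11, 56 and 21 UMIs.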
